A study of Mus musculus with 10 samples.

Results

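The genes described here are 10 enzymes and helper proteins that make eicosanoids, with the secreted phospholipase Pla2g2e at their head, out of 21849 genes in the count table. They were picked by symbol, and every one of the 10 was found through its versioned mouse Ensembl identifier. The set was put together around Pla2g2e because of its difference between diets in these same tumours, so the diet values of the members below describe the choice and carry no test. The tumours were CT26, a colon carcinoma line of the mouse, implanted subcutaneously in BALB/c mice. The arginine-deficient group was made of 5 tumours from mice on a diet that held no arginine and matched the other diet in calories, and the normal group was made of 5 tumours from mice on the normal diet. All mice were 5 weeks old at the start, ate their diet for 1 week before the cells were implanted, and had their tumours taken out on day 20. Each library held the total RNA of a whole tumour, graft cells and host cells together, so that fewer cells of a type and less RNA per cell cannot be told apart. The CT26 graft is a single cultured line in the mouse strain it came from.

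Eicosanoids are short-lived signalling lipids made from arachidonic acid, which phospholipases A2 cut from membrane phospholipids. Cyclooxygenases turn it into prostaglandin H2, which terminal synthases convert to prostaglandin E2, prostaglandin D2 and other prostanoids. 5-lipoxygenase and its helper protein turn it into leukotriene A4, from which leukotriene B4 and the cysteinyl leukotrienes are made. In tumours, cyclooxygenase-2 and prostaglandin E2 are known for their effects on immune cells, and leukotrienes are known mainly as products of myeloid cells and mast cells.

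The start regions of Pla2g2e and Ptgs2 are shown because these are the 2 members with the largest fitted differences between diets. Each is the 250 bases before the gene's start in RefSeq on GRCm38.p6, 5′ to 3′ on the gene's own strand, at chr4:138877692-138877941 on the plus strand for Pla2g2e and chr1:150099781-150100030 on the plus strand for Ptgs2. Capitals mark a match to TGANTCA, the letters bound by AP-1 factors, in Pla2g2e. In Ptgs2 they mark a match to a loose NF-kB motif, which is GGG, any 5 bases and CC.
Pla2g2e: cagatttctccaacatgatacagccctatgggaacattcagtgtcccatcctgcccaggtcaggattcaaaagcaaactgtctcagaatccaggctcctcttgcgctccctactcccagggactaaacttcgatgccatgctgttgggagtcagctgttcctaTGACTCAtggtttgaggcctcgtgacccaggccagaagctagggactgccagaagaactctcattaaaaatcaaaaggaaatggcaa
Ptgs2: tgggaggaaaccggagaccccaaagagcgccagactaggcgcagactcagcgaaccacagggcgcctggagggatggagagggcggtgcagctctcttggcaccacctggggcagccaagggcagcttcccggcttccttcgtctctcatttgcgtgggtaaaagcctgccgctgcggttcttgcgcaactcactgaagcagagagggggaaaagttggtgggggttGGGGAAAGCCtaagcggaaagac
The match in Pla2g2e lies 87 to 81 bases before the start, and the match in Ptgs2 lies 23 to 14 bases before it. Of the members, 9 had a start region in the RefSeq table, and Alox5ap had no entry. On either strand, TGANTCA was found in 2 of these 9 genes, Pla2g2e and Ptgds, and in 6.75% of all 32851 start regions of the same length. The NF-kB motif was found in 5 of the 9 (Ptgs2, Ptges, Ptgds, Alox5 and Lta4h) and in 45.8% of all start regions. TGATGNAA, the composite letters of C/EBP and ATF factors, was found in none of the members and in 3.45% of all start regions. These are descriptions of letters in a window, and nothing follows from them about the factors.

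Across the libraries, totals spanned 12013178 to 31530123 counts, and 12929 genes passed the filter on low counts. The mitochondrial genome's transcripts were 9.97% of the counts of arginine-deficient replicate 3 and 1.67% to 4.44% of those of every other library. The summed skeletal muscle markers Ckm, Mylpf and Tnnt3 reached 1747 CPM (counts scaled to one common library size) there and 440 CPM in replicate 4 of the same diet. Their sum was 152 CPM in normal replicate 4 and 1.24 to 20.3 CPM in the others. Acta1 was listed at 0, but 100% of its exonic bases lie inside other genes' bodies, so this zero is not read as absence. Epithelial markers of the colon line were low: Epcam had at most 9 counts and Cdx2 at most 8 counts in any library, and the 6 markers summed to 8.37 to 20.2 CPM on the arginine-deficient diet and 10.8 to 25.2 CPM on the normal diet. Of the 6, 3 were higher on average on the arginine-deficient diet, and most of the sum was Krt18. Macrophage markers were abundant, summing to 1665 to 1842 CPM on the arginine-deficient diet and 1266 to 1838 CPM on the normal diet. Leukocyte markers summed to 439 to 679 CPM on the arginine-deficient diet and 486 to 579 CPM on the normal diet.

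Of the 10 members, 9 passed the filter on low counts, Ltc4s being left out. With edgeR's quasi-likelihood test over all genes, 0 of these 9 passed an adjusted p of 0.05, where 0.0541% of all tested genes did. 1 of the 9, Pla2g2e, was called by DESeq2 and by limma voom with sample weights, where 0.896% and 2.88% of tested genes were called. At an unadjusted p under 0.05, edgeR marked 2 of the 9, Pla2g2e and Ptgs2, against 6.74% of all tested genes. The groups did not overlap for 1 of the 9, Pla2g2e, against 1.65% of all tested genes. Since this same contrast led to the set, nothing is read from these counts. The log2 fold change of arginine-deficient over normal was positive for 6 and negative for 3 of the 9, where 50.3% of all tested genes were positive. The members' median was 0.10, against 0.0012 over all tested genes, and 7 of the 9 lay within 0.25 of zero.

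**Figure D1:**
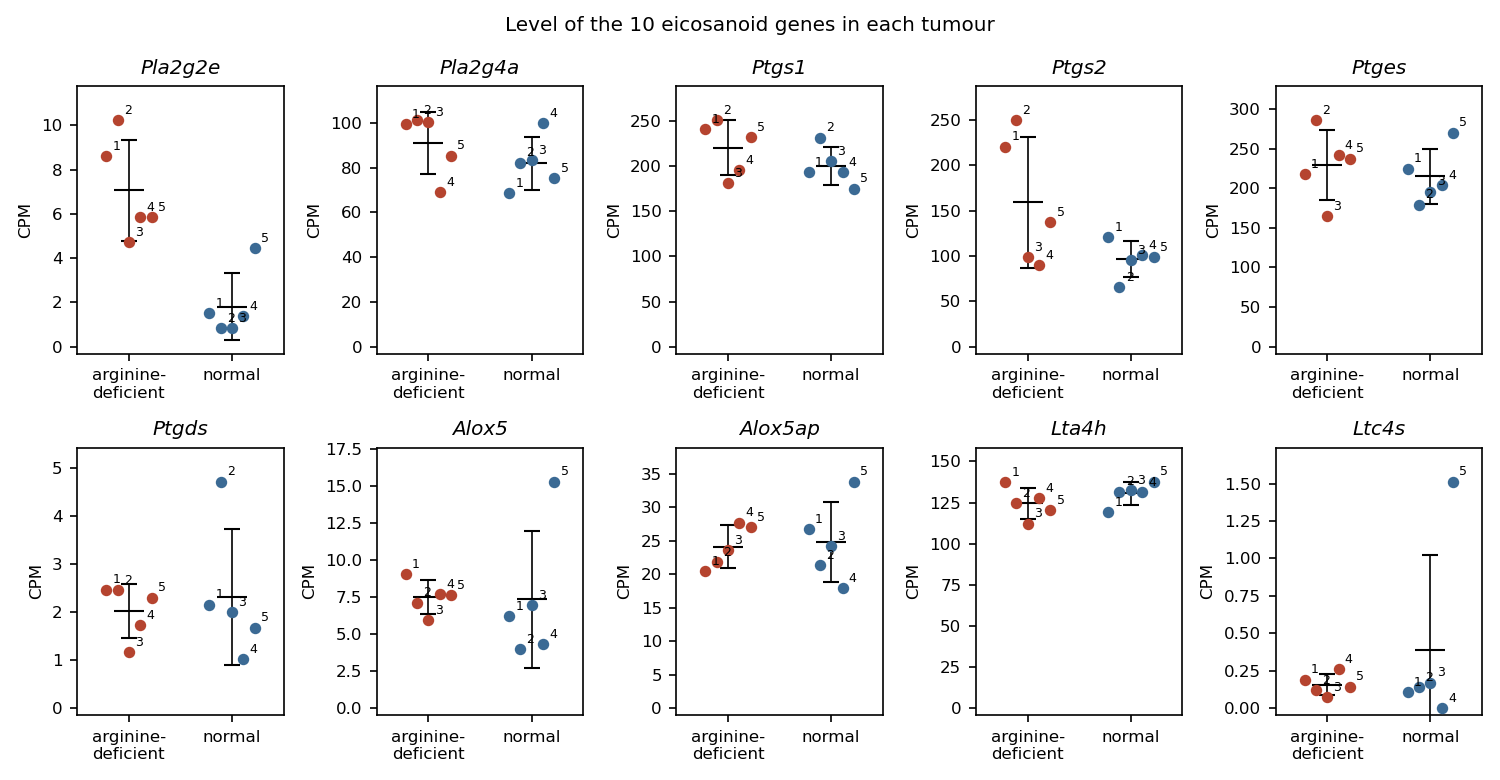
CPM of each of the 10 genes in every tumour, arginine-deficient in red and normal in blue, with the replicate number beside each point and the mean and SD (n = 5) as bars. The Pla2g2e values lie at 4.73 to 10.2 CPM on the arginine-deficient diet and 0.842 to 4.46 CPM on the normal diet, and every other gene overlaps between the diets.

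The release step was covered by a secreted and a cytosolic phospholipase. Pla2g2e encodes the group IIE secreted phospholipase A2, known in mice from hair follicles and fat tissue (ENSMUSG00000028751.13, mm10 chr4:138877942-138882817, plus strand). Its level was 8.63, 10.2, 4.73, 5.87 and 5.84 CPM in arginine-deficient replicates 1 to 5, against 1.51, 0.842, 0.852, 1.38 and 4.46 CPM in normal replicates 1 to 5. Every arginine-deficient tumour lay above every normal tumour, with the margin set by arginine-deficient replicate 3 and normal replicate 5, and normal replicate 5 stood well above the other 4 normal tumours. These levels rest on 272, 171, 130, 136 and 81 counts in the arginine-deficient libraries and on 28, 18, 20, 27 and 53 counts in the normal libraries. The means were 7.06 ± 2.29 CPM on the arginine-deficient diet and 1.81 ± 1.51 CPM on the normal diet (n = 5 each, ± SD), a fitted log2 fold change of 2.02 with a standard error of 0.44, or 4.05-fold. By the size of its log2 fold change, Pla2g2e ranked 55 among the 12929 tested genes.

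Normal replicate 5 weighed most on the Pla2g2e estimate. Without that library the log2 fold change was 2.63 with a standard error of 0.32, and edgeR then called Pla2g2e, with 0.114% of tested genes called. With all libraries, or in any other fit that left out libraries, edgeR did not call it. Since this same contrast led to the set, the call is given as a description. Leaving out any of the other libraries gave 1.83 to 2.15, and leaving out the 3 libraries richest in muscle gave 2.19 with a standard error of 0.54. Down-weighting libraries by their own spread, as limma voom with sample weights does, gave 2.71 with a standard error of 0.29.

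**Figure D2:**
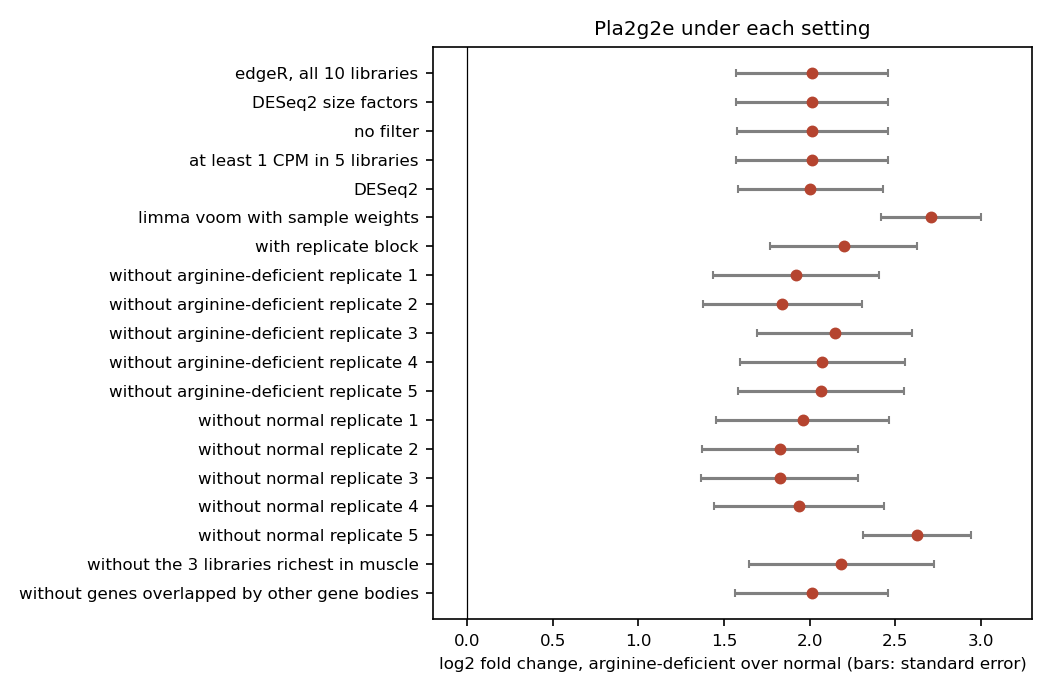
Log2 fold change of Pla2g2e, arginine-deficient over normal, under each way of fitting it, with the standard error as bars. The estimate runs from 1.83 to 2.71, and the 2 highest are limma voom with sample weights and the fit without normal replicate 5.

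Markers of adipocytes and keratinocytes, for the tissues that Pla2g2e is known from, and of mast cells were set beside it. Adipocyte markers summed to 29.8 to 59.7 CPM on the arginine-deficient diet and 42.0 to 68.4 CPM on the normal diet, with 0 of the 4 markers higher on average on the arginine-deficient diet. Most of the sum was Fabp4, at 29.0 to 49.9 CPM on the arginine-deficient diet and 40.1 to 56.9 CPM on the normal diet. Adipoq reached at most 1.78 CPM, Plin1 1.59 CPM and Cfd 8.14 CPM, so the sum says little of fat content. Keratinocyte markers summed to 2.86 to 4.25 CPM on the arginine-deficient diet and 2.68 to 3.28 CPM on the normal diet, and the sum was nearly all Krt10, since Krt5, Krt14 and Lor had at most 3 counts in any library. Mast cell markers summed to 45.5 to 95.4 CPM on the arginine-deficient diet and 35.2 to 107 CPM on the normal diet. Pla2g2e and the mast cell sum ran in opposite directions within the diets. With each value taken relative to its diet's mean, their r was -0.84 (exact within-diet permutation p = 0.00417, adjusted p = 0.135 over 36 relations between members and marker sums). Pooled over the diets r was -0.47 and rho was -0.50, and r was -0.36 without normal replicates 3 and 5. The part of adipocytes and keratinocytes in the Pla2g2e difference was not tested.

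Pla2g4a encodes the cytosolic phospholipase A2 alpha, the main calcium-dependent source of free arachidonic acid (ENSMUSG00000056220.14, chr1:149829618-149961290, minus strand). It had 99.5, 101, 100.2, 69.1 and 85.3 CPM in the arginine-deficient tumours, against 68.6, 82.3, 83.5, 99.98 and 75.2 CPM in the normal tumours. Of the arginine-deficient tumours, replicates 2 and 3 lay just above the highest normal tumour and the other 3 lay inside the range of the normal tumours, so the groups overlapped. The means were 91.1 ± 13.9 CPM on the arginine-deficient diet and 81.9 ± 11.7 CPM on the normal diet (n = 5 each, ± SD), with a log2 fold change of 0.15 ± 0.14 (standard error).

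Pla2g2e was also set against 3 of the 4 other secreted phospholipases tested, with Pla2g1b left out of the sum. Per kilobase of exon, it was 34.8%, 37.1%, 25.9%, 28.5% and 25.8% of the sum of Pla2g2e, Pla2g2d, Pla2g5 and Pla2g12a in the arginine-deficient tumours, against 10.8%, 7.09%, 7.17%, 12.3% and 21.6% in the normal tumours. The shares did not overlap, and normal replicate 5 again lay nearest to the arginine-deficient tumours. This share contains the same Pla2g2e counts that led to the set and is given as a description.

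The cyclooxygenase step is held by a constitutive and an inducible enzyme. Ptgs1 encodes cyclooxygenase-1, the form present in most tissues at rest (ENSMUSG00000047250.13, chr2:36230426-36252272, plus strand). Its level was 241, 251, 181, 196 and 233 CPM in the arginine-deficient tumours, against 193, 232, 206, 193 and 175 CPM in the normal tumours. The arginine-deficient values reached higher in 3 tumours, but the groups overlapped. The means were 220.4 ± 30.4 CPM on the arginine-deficient diet and 199.9 ± 20.9 CPM on the normal diet (n = 5 each, ± SD), with a log2 fold change of 0.14 ± 0.12 (standard error).

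Ptgs2 encodes cyclooxygenase-2, which inflammatory signals induce (ENSMUSG00000032487.8, chr1:150100031-150108227, plus strand). It had 221, 250.2, 99.0, 89.9 and 137 CPM in the arginine-deficient tumours, against 121, 65.6, 95.8, 101 and 99.2 CPM in the normal tumours. Arginine-deficient replicates 1 and 2 stood far above the rest, replicate 5 lay just above the highest normal tumour, and replicates 3 and 4 lay among the normal tumours, so 3 of 5 exceeded every normal tumour and the groups overlapped. The means were 159 ± 72.4 CPM on the arginine-deficient diet and 96.6 ± 20.0 CPM on the normal diet (n = 5 each, ± SD), with a log2 fold change of 0.72 ± 0.28 (standard error), or 1.65-fold. Leaving out single libraries moved that value between 0.50, without arginine-deficient replicate 2, and 0.87, without arginine-deficient replicate 4. Leaving out the 3 libraries richest in muscle gave 1.09. Those were normal replicate 4 and arginine-deficient replicates 3 and 4, which had the lowest Ptgs2 levels of their diet. The part of muscle in this change was not tested.

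The balance of the cyclooxygenases was computed per kilobase of exon. Ptgs2 was 43.7%, 45.8%, 31.7%, 28.0% and 33.4% of the sum of Ptgs1 and Ptgs2 in the arginine-deficient tumours, against 34.7%, 19.3%, 28.3%, 30.7% and 32.4% in the normal tumours. Arginine-deficient replicates 1 and 2 were the 2 highest, normal replicate 2 was the lowest, and the other 7 tumours lay close together. Ptgs1 was the larger part of the sum in every tumour.

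Of the terminal synthases, Ptges encodes the membrane-bound prostaglandin E synthase that works with cyclooxygenase-2 (ENSMUSG00000050737.13, chr2:30889471-30929863, minus strand). It had 218, 286, 165, 242 and 237 CPM in the arginine-deficient tumours, against 225, 179, 196, 204 and 270.2 CPM in the normal tumours. The lowest and the highest tumour were both on the arginine-deficient diet, and the groups overlapped throughout. The means were 229 ± 44.0 CPM on the arginine-deficient diet and 215 ± 35.0 CPM on the normal diet (n = 5 each, ± SD), with a log2 fold change of 0.10 ± 0.15 (standard error).

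Ptgds encodes the lipocalin-type prostaglandin D synthase (ENSMUSG00000015090.13, chr2:25466709-25470046, minus strand). Its level was 2.47, 2.46, 1.16, 1.73 and 2.31 CPM in the arginine-deficient tumours, against 2.16, 4.73, 2.00, 1.02 and 1.68 CPM in the normal tumours. Normal replicate 2 stood apart at the top, and the other 9 tumours overlapped. The log2 fold change was -0.21 ± 0.38 (standard error), and it became 0.23 when normal replicate 2 was left out.

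The leukotriene members showed a different order of tumours. Alox5 encodes 5-lipoxygenase, which makes leukotriene A4 (ENSMUSG00000025701.12, chr6:116410077-116461178, minus strand). It had 9.07, 7.13, 5.93, 7.73 and 7.64 CPM in the arginine-deficient tumours, against 6.21, 3.98, 6.94, 4.34 and 15.3 CPM in the normal tumours. Normal replicate 5 exceeded all other tumours, while the other 4 normal tumours lay below 4 of the 5 arginine-deficient ones. The means were 7.5 ± 1.13 CPM on the arginine-deficient diet and 7.35 ± 4.62 CPM on the normal diet (n = 5 each, ± SD), with a log2 fold change of 0.04 ± 0.33 (standard error). Without normal replicate 5 the log2 fold change of Alox5 was 0.48.

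Alox5ap encodes FLAP, the membrane protein that hands arachidonic acid to 5-lipoxygenase (ENSMUSG00000060063.9, chr5:149264767-149288153, plus strand). It had 20.5, 21.8, 23.5, 27.7 and 27.0 CPM in the arginine-deficient tumours, against 26.8, 21.3, 24.2, 17.9 and 33.8 CPM in the normal tumours. The normal tumours held both the lowest and the highest value, so the arginine-deficient values lay wholly inside their range. The log2 fold change was -0.04 ± 0.17 (standard error), and 28.9% of the gene's exonic bases lie inside other genes' bodies.

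Lta4h encodes leukotriene A4 hydrolase, which makes leukotriene B4 (ENSMUSG00000015889.8, chr10:93453411-93484875, plus strand). It had 137, 125, 112, 128 and 121 CPM in the arginine-deficient tumours, against 119, 132, 133, 131 and 138 CPM in the normal tumours. Of the arginine-deficient tumours, 4 lay below 4 of the normal tumours, but replicate 1 of each diet crossed over and the groups overlapped. The means were 124 ± 9.25 CPM on the arginine-deficient diet and 131 ± 6.94 CPM on the normal diet (n = 5 each, ± SD), with a log2 fold change of -0.07 ± 0.09 (standard error) and an approximate 95% interval of -0.25 to 0.11. This was the narrowest interval among the 9 tested members.

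Ltc4s encodes leukotriene C4 synthase, which starts the cysteinyl leukotrienes (ENSMUSG00000020377.15, chr11:50236461-50238616, minus strand). It had 6, 2, 2, 6 and 2 counts in the arginine-deficient libraries, against 2, 3, 4, 0 and 18 counts in the normal libraries. Normal replicate 5 alone had more than 6 counts. The body of the antisense gene Gm26542 covers 75.1% of the exonic bases of Ltc4s, and the sources used here do not state whether reads were counted by strand, so the low counts cannot be read as a low level.

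Which tumour was highest differed between the members. Arginine-deficient replicate 2 had the highest CPM of all 10 tumours for 5 members, namely Pla2g2e, Pla2g4a, Ptgs1, Ptgs2 and Ptges, and it was the highest tumour for 9.02% of all tested genes. Normal replicate 5 was highest for all 4 leukotriene members, Alox5, Alox5ap, Lta4h and Ltc4s, and for 22.2% of all tested genes. For Lta4h the margin was small, at 137.8 CPM against 137.3 CPM in arginine-deficient replicate 1. Ltc4s was not a tested gene, and its place rests on 18 counts. The remaining member, Ptgds of the prostanoid branch, was highest in normal replicate 2, the highest tumour for 10% of all tested genes. Arginine-deficient replicate 3, highest for 24.9% of all tested genes, was highest for 0 members. In normal replicate 5, the mast cell sum of 35.2 CPM was the lowest of all 10 tumours. Its neutrophil sum of 31.0 CPM was hardly below the 31.1 CPM of arginine-deficient replicate 4. Of the neutrophil markers, Retnlg and Mmp8 were lowest there, but Cxcr2 was highest, at 1.26 CPM. Its platelet sum of 44.9 CPM was hardly above the 44.6 CPM of arginine-deficient replicate 5, and no single platelet marker was highest there. Over the 10 tumours, Alox5ap had r = -0.64 with the neutrophil sum (permutation p = 0.0446, adjusted p = 0.321) and rho = -0.62 (permutation p = 0.0606, adjusted p = 0.545), and r was -0.17 without arginine-deficient replicate 4 and normal replicate 5. Alox5 had r = -0.58 with the mast cell sum (permutation p = 0.0719, adjusted p = 0.432) and rho = -0.49 (permutation p = 0.153, adjusted p = 0.582), and r was -0.37 without normal replicates 3 and 5. Neither passed, and the adjustment covers the 36 relations between members and marker sums described further on.

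Levels of different genes were compared per kilobase of exon, as CPM per kilobase over all 10 tumours. Ptges averaged 56.5 (range 41.9 to 72.8) and Ptgs1 54.1 (range 45.1 to 64.7), the 2 highest by this length. Ptgs2 followed at 28.0, with the wide range of 14.3 to 54.6. Lta4h averaged 20.9 (range 18.4 to 22.6), Alox5ap 17.2 (range 12.6 to 23.8) and Pla2g4a 13.5 (range 10.7 to 15.8). Pla2g2e averaged 4.84 and had the widest relative range among the tested members, 0.919 to 11.2. Alox5 averaged 1.81 (range 0.969 to 3.73), Ptgds 1.32 (range 0.620 to 2.87) and Ltc4s 0.268 (range 0 to 1.49). The place of Ltc4s cannot be read as a low level, since 75.1% of its exonic bases lie under an antisense gene's body. Every gene's range over the tumours overlapped that of its neighbour in this order. Such ranges do not compare 2 genes within a tumour, and Ptgs1 exceeded its neighbour Ptgs2 in every tumour. The order depends on the length used: per kilobase of the whole gene body Ptgs2 was highest at a mean of 15.6, ahead of Ptgs1 at 9.62 and Ptges at 5.50.

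**Figure D3:**
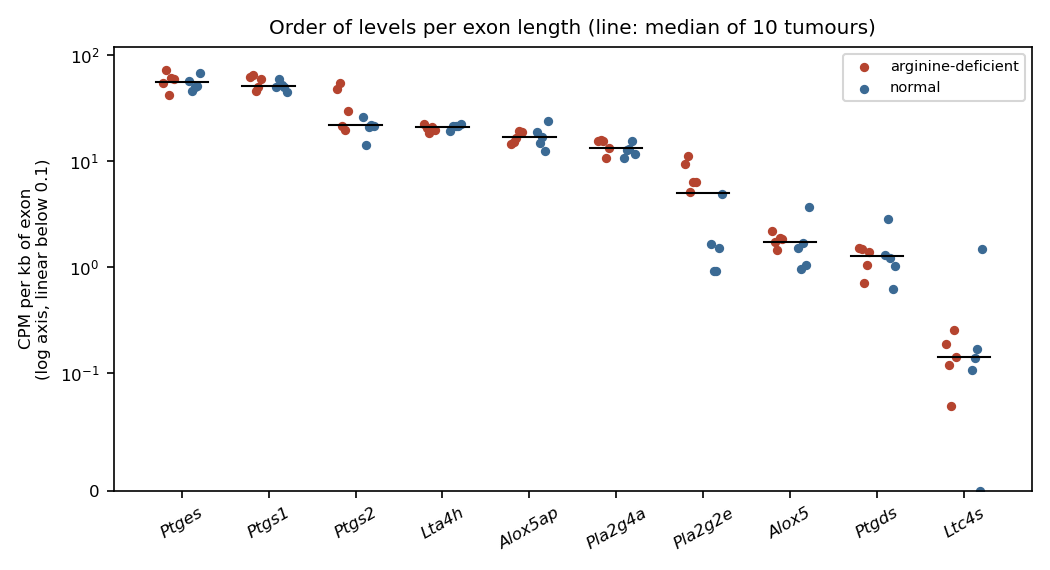
CPM per kilobase of exon of the 10 genes in every tumour on a log axis that is linear below 0.1, arginine-deficient in red and normal in blue, ordered by the mean, with a line at the median of the 10 tumours. Ptges and Ptgs1 lie highest at means of 56.5 and 54.1. Ltc4s is drawn lowest at 0.268, which cannot be read as a low level because an antisense gene's body covers most of its exonic bases.

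The rest of the pathway was described through lists of genes by function, 72 symbols in all, of which 69 were in the table and 44 had enough counts to be tested. With edgeR's quasi-likelihood test, 0 of the 44 passed an adjusted p of 0.05 in either direction, against 0.0541% of all tested genes. At an unadjusted p under 0.05 there were 3, of which 2 were higher on the arginine-deficient diet, against 6.74% of all tested genes. DESeq2 called 1 of the 44, Mgst2, and limma voom with sample weights called 3, Mgst2, Abcc4 and Pla2g12a, where these tools called 0.896% and 2.88% of all genes they tested. Of the 44 genes, 23 had a positive log2 fold change and 21 a negative one. Their median was 0.04, against 0.0012 over all tested genes. Without the 3 libraries richest in muscle that median was -0.11.

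Among the other secreted phospholipases, 3 of the 4 tested were positive, with a median log2 fold change of 0.26. Pla2g12a, the widely expressed group XIIA enzyme, averaged 57.8 ± 5.42 CPM on the arginine-deficient diet and 43.5 ± 10.2 CPM on the normal diet (n = 5 each, ± SD). Its log2 fold change was 0.41 ± 0.15 (standard error) with an edgeR adjusted p of 0.604, and normal replicate 5, at 60.6 CPM, lay among the arginine-deficient tumours. Pla2g2d, a lymphoid-tissue enzyme in mice, averaged 1.13 CPM on the arginine-deficient diet and 0.765 CPM on the normal diet, a log2 fold change of 0.51 ± 0.57 (standard error). Pla2g5, a macrophage and heart enzyme, had a log2 fold change of -0.21 ± 0.28. Pla2g2c and Pla2g2f were at 0 in every library.

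Of the intracellular and other phospholipases, 4 of 6 were positive, with a median log2 fold change of 0.06. The values were 0.39 ± 0.40 for the calcium-independent Pla2g4c, 0.23 ± 0.27 for Pla2g16 of fat tissue and -0.08 ± 0.12 for the calcium-independent Pla2g6 (log2 fold change, standard error). Without arginine-deficient replicate 3, Pla2g4c was at 0.11 and Pla2g16 at -0.034, and without the 3 libraries richest in muscle they were at 0.0082 and -0.23. The genes that supply arachidonic acid or return it to phospholipids split evenly, 3 positive and 3 negative, with a median of -0.0025. Acsl4, which activates arachidonic acid, had a log2 fold change of -0.26 ± 0.19, Mgll, which frees it from monoglycerides, -0.12, and Mboat7, which returns it to phosphatidylinositol, 0.10.

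Of the remaining prostanoid synthases, 4 of 7 were positive, with a median log2 fold change of 0.06. Ptgis, the prostacyclin synthase, had -0.46 ± 0.38, Hpgds, the haematopoietic prostaglandin D synthase, -0.21 ± 0.20, and the carbonyl reductase Cbr1 -0.17 (log2 fold change, standard error). In the list of breakdown and transport, 3 of 5 were positive, with a median of 0.21. Abcc4, which exports prostaglandins from cells, was at 79.8 to 83.9 CPM on the arginine-deficient diet and 57.5 to 73.7 CPM on the normal diet, with no overlap. Its means were 81.6 ± 1.61 CPM on the arginine-deficient diet and 65.7 ± 7.26 CPM on the normal diet (n = 5 each, ± SD), and its log2 fold change of 0.31 ± 0.10 (standard error) had an adjusted p of 0.470 by edgeR, 0.117 by DESeq2 and 0.0462 by limma voom with sample weights. It was 1 of 44 pathway genes without overlap, against 1.65% of all tested genes. Ptgr1, which reduces prostaglandin metabolites, had a log2 fold change of -0.28 ± 0.17, and Hpgd, the first enzyme of prostaglandin breakdown, had 0.44 ± 0.40 (standard error), which became -0.11 without arginine-deficient replicate 3.

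Of the prostanoid receptors, only 3 of 9 listed had enough counts, 1 positive and 2 negative. Ptger4, the EP4 receptor for prostaglandin E2, averaged 17.9 CPM on the arginine-deficient diet and 21.3 CPM on the normal diet, a log2 fold change of -0.25 ± 0.22 (standard error), with 49.96% of its exonic bases inside other genes. Ptgir, the prostacyclin receptor, had -0.10 and Tbxa2r, the thromboxane receptor, 0.13 (log2 fold change). Ptger1 and Ptger2, further prostaglandin E2 receptors, were listed at 0 in every library, and their exons lie inside other genes' bodies. Akr1b3, Dpep1, Dpep2, Pla2g4b and Fpr2 were likewise listed at 0 with over 95% of their exonic bases inside other bodies. These zeros are read as listed at 0 only.

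Downstream of leukotriene A4, the log2 fold changes of leukotriene conversion genes were negative in all 5 tested, where 50.3% of all tested genes were positive. Their median was -0.33 against 0.0012 over all tested genes, although none passed the edgeR test. Mgst2, a microsomal glutathione transferase that can make leukotriene C4, was at 71.5, 46.3, 47.9, 53.4 and 47.0 CPM in the arginine-deficient tumours, against 63.6, 94.4, 79.5, 81.0 and 90.9 CPM in the normal tumours. Of the arginine-deficient tumours, 4 lay below every normal tumour, and only arginine-deficient replicate 1 overlapped with them. The means were 53.2 ± 10.6 CPM on the arginine-deficient diet and 81.9 ± 12.03 CPM on the normal diet (n = 5 each, ± SD). The log2 fold change of Mgst2 was -0.62 ± 0.15 (standard error), with an adjusted p of 0.270 by edgeR, 0.0240 by DESeq2 and 0.0191 by limma voom with sample weights. Mgst3, its relative, averaged 41.8 CPM on the arginine-deficient diet and 52.5 CPM on the normal diet, a log2 fold change of -0.33 ± 0.17 with an edgeR adjusted p of 0.794. Cyp4f18, which inactivates leukotriene B4 in mouse neutrophils, had -0.46 ± 0.40. It reached at most 1.04 CPM on the arginine-deficient diet and 1.41 CPM on the normal diet, with 47.9% of its exonic bases inside other genes. The other 2 of the 5 were close to zero, with -0.071 ± 0.36 for Ggt1 and -0.040 ± 0.31 for Ggt5, enzymes that convert leukotriene C4 to leukotriene D4.

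Of the leukotriene and lipoxin receptors, 3 of 4 were positive, with a median log2 fold change of 0.23. Ltb4r1, the high-affinity leukotriene B4 receptor, averaged 6.44 CPM on the arginine-deficient diet and 4.78 CPM on the normal diet, a log2 fold change of 0.44 ± 0.36 (standard error). Cmklr1, the chemerin receptor that also binds resolvin E1, averaged 26.4 ± 2.45 CPM on the arginine-deficient diet and 22.3 ± 1.64 CPM on the normal diet (n = 5 each, ± SD), with a log2 fold change of 0.24 ± 0.11 and an edgeR adjusted p of 0.748. Cysltr1, a cysteinyl leukotriene receptor, had 0.22 ± 0.38. The platelet lipoxygenase Alox12 was the 1 tested gene of its list, at -0.08, and the epoxide pathway genes Ephx1, Ephx2 and Cyp2j6 had -0.12, 0.14 and 0.06 (log2 fold change).

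**Figure D4:**
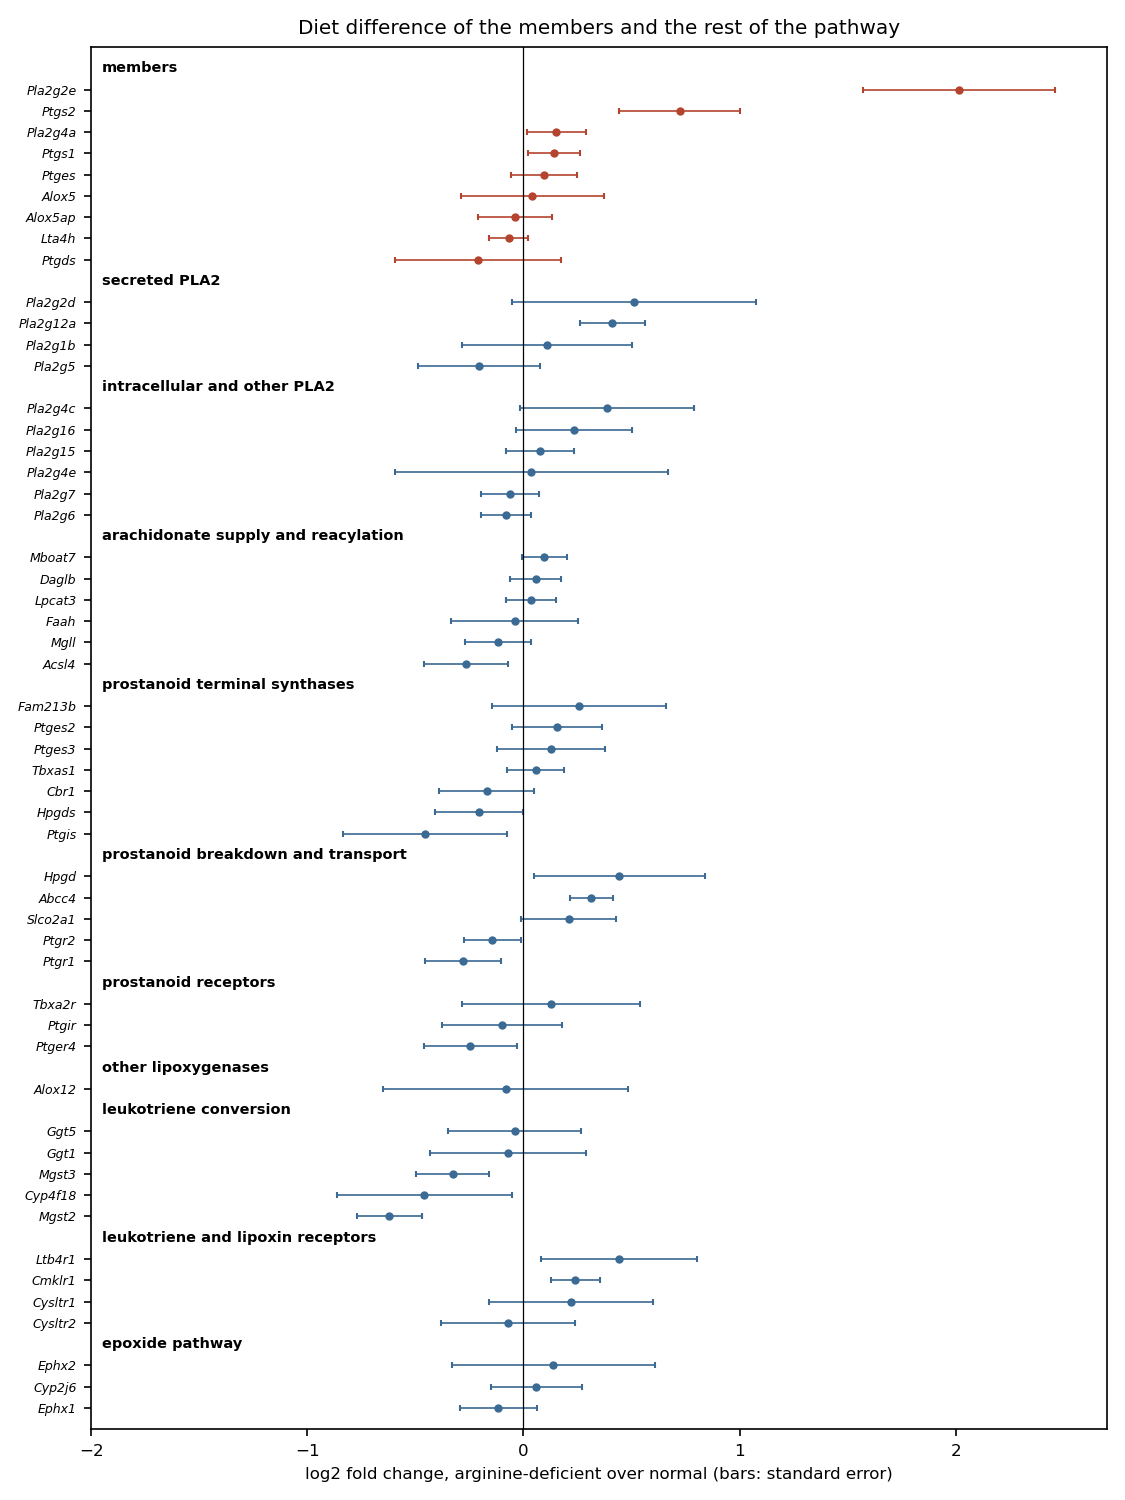
Log2 fold change of arginine-deficient over normal with its standard error for the 9 tested members in red and the 44 tested genes of the pathway lists in blue, by function. Pla2g2e at 2.02 lies apart from all others, which run from -0.62 for Mgst2 to 0.72 for Ptgs2.

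Relations were computed over the 10 tumours, both diets pooled, between log2 CPM of the 9 tested members and the summed markers of macrophages, neutrophils, mast cells and fibroblasts, 36 relations in all. None passed an adjusted p of 0.05 by permutation, and 5 had an unadjusted p under 0.05. The strongest was Ptges with the mast cell sum, at Pearson's r = -0.78 (permutation p = 0.00835, adjusted p = 0.295) and Spearman's rho = -0.78 (permutation p = 0.0110, adjusted p = 0.397). Without normal replicates 3 and 5, the tumours farthest from the median of the mast cell sum, r was -0.73. Alox5ap followed with the macrophage sum, at r = 0.71 (permutation p = 0.0247, adjusted p = 0.295) and rho = 0.72 (permutation p = 0.0231, adjusted p = 0.416), and r was 0.51 without arginine-deficient replicate 5 and normal replicate 4. Ptgs2 had r = -0.69 with the fibroblast sum (permutation p = 0.0286, adjusted p = 0.295) and rho = -0.65 (permutation p = 0.0487, adjusted p = 0.545), and r was -0.48 without normal replicate 1 and arginine-deficient replicate 2. With each value taken relative to its diet's mean, 0 of the 36 passed, the strongest being Pla2g2e with the mast cell sum at -0.84, given above.

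Among the members themselves, 0 of 36 pairs passed an adjusted p of 0.05, and 5 had an unadjusted p under 0.05. Pla2g4a and Alox5ap ran in opposite directions, at r = -0.73 (permutation p = 0.0168, adjusted p = 0.211) and rho = -0.61 (permutation p = 0.0665, adjusted p = 0.399), with r = -0.75 without arginine-deficient replicate 4 and normal replicate 1. Alox5 and Alox5ap, partners in the same reaction, had r = 0.72 (permutation p = 0.0202, adjusted p = 0.211) and rho = 0.55 (permutation p = 0.104, adjusted p = 0.536), and r was 0.44 without normal replicates 2 and 5. Ptgs1 and Ptgds had r = 0.69 (permutation p = 0.0234, adjusted p = 0.211) and rho = 0.77 (permutation p = 0.0130, adjusted p = 0.399). Their r was 0.77 with values taken relative to each diet's mean and 0.73 without arginine-deficient replicates 1 and 2. Ptges and Alox5 had r = 0.64 (permutation p = 0.0438, adjusted p = 0.316) and rho = 0.70 (permutation p = 0.0302, adjusted p = 0.399), and r was 0.84 without arginine-deficient replicates 2 and 3.

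Since Pla2g2e was chosen for its diet difference, a pooled relation of it contains that difference, and its pairs are given relative to each diet's mean. So taken, r was 0.78 with Ptges (exact within-diet permutation p = 0.00312, adjusted p = 0.113), 0.79 with Alox5 (exact within-diet permutation p = 0.0492, adjusted p = 0.312) and 0.52 with Ptgs2 (exact within-diet permutation p = 0.0606, adjusted p = 0.312). None passed. Pooled over the diets, r was 0.56 with Ptges, 0.57 with Alox5 and 0.70 with Ptgs2, as a description.

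**Figure D5:**
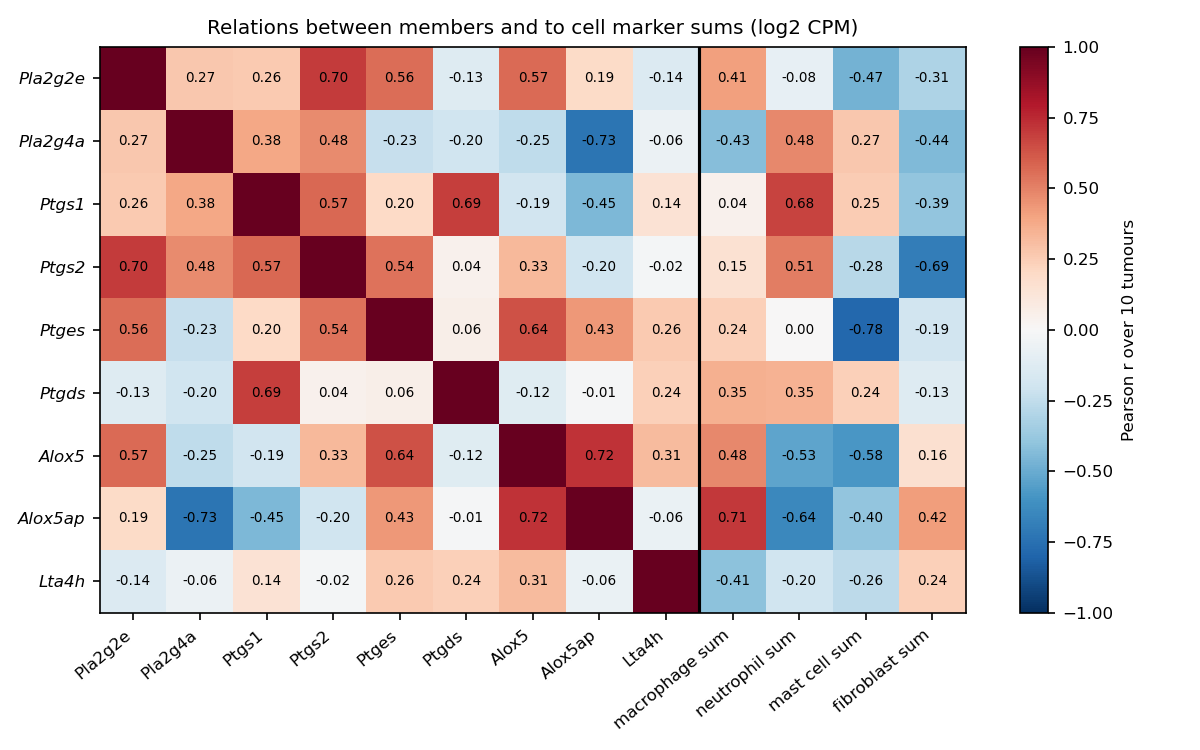
Pearson's r over the 10 tumours between log2 CPM of the 9 tested members and, right of the black line, between each member and the log2 summed CPM of 4 cell types' markers, red for positive and blue for negative. The deepest blue is Ptges with the mast cell sum at -0.78, and the strongest positive pair is Alox5 with Alox5ap at 0.72.

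Genes that resembled Pla2g2e most over the 10 tumours, both diets pooled, were looked up among 12254 genes averaging at least 1 CPM. A pooled r contains the diet difference for which Pla2g2e was chosen. Pearson's r of log2 CPM was 0.94 for Sh3rf1, Surf4, Xbp1, Avil and Prdx6 and 0.92 for Pla2g12a, another secreted phospholipase. With values taken relative to each diet's mean, r was 0.83 for Sh3rf1, 0.83 for Surf4, 0.77 for Xbp1, 0.78 for Avil, 0.86 for Prdx6 and 0.86 for Pla2g12a. By that r they ranked 284, 255, 659, 578, 138 and 146 among the 12254 genes, so many other genes were closer to Pla2g2e within the diets. In all 6, normal replicate 5 exceeded the other 4 normal tumours, as it did for Pla2g2e. The 6 were picked for their likeness to Pla2g2e, so this follows in part from the choice and is given as a description. Xbp1, for example, averaged 172 CPM on the arginine-deficient diet and 124 CPM on the normal diet, where normal replicate 5 was at 138 CPM and the next normal tumour at 131 CPM. For Avil, which averaged 42.7 CPM on the arginine-deficient diet and 7.72 CPM on the normal diet, 41.2% of exonic bases lie inside other genes.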

How the data were processed

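RNA-seq of 5 arginine-deficient and 5 normal-diet tumours was used. The authors deposited whole-number read counts for each gene and library, without normalization. The submitters' processing notes name FastQC, STAR, featureCounts and the mm10 build, and the sources used here give neither versions nor strand settings. Per the labels' protocols, TRIzol was used to extract total RNA. Replicate titles gave the diets. Symbols and positions came from GENCODE M21 (21379 identifiers had the same version there, 437 another, and 33 no symbol), and start regions came from RefSeq. The design text assigns single mice to diets, so tumours were taken as separate animals. All pairs of libraries differed by more than sampling noise (lowest chi-square per degree of freedom 16.7).

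The diet comparison used edgeR 4.0.16 in R 4.3.3, with the quasi-likelihood F test, TMM factors and filterByExpr at its defaults (minimum count 10, minimum total 15). It kept 12929 genes holding 99.9% of counts, with p-values adjusted by Benjamini-Hochberg over all of them and a threshold of 0.05. The biological coefficient of variation was 26.5%. Fold changes are arginine-deficient over normal, a value after ± beside one is its standard error (from the fold change and the F statistic), and CPM uses the TMM factors. Relations used log2 CPM (prior count 2) and 100000 permutations, or all 14400 within-diet permutations for diet-centred values. The edgeR step was tested on simulated data.

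Alternatives were DESeq2 1.42.0, limma 3.58.1 voom with sample weights, other size factors, no filter, at least 1 CPM in 5 libraries, a replicate block, each library left out, the 3 libraries richest in muscle left out, removal of genes overlapped over 50% or more of their exonic bases, and gene-body lengths. Gene-body lengths, the relations between members and the diet-centred likeness to Pla2g2e were added after seeing the data.

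The members, lists and tests were chosen with earlier results of these data known. The text names all 10 members, pathway genes called in the diet comparison and the 3 genes of smallest p in each list. It also names the 6 genes most like Pla2g2e with both diets pooled. Single markers, Ggt1, Ggt5, genes listed at 0, the sum of secreted phospholipases and sentences on single libraries were chosen after values were seen.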

Additional observations from a re-analysis of the deposited data

Results flagged for a closer look

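A tumour far from the other 4 of its diet was found in 12 of 100 groups of 5 looked at. Chance gives about 1 in 20 for independent groups with normally distributed values. These groups all come from the same libraries, so no excess is read from the count. On the normal diet, replicate 5 stood apart for 4 genes: Pla2g2e at 4.46 CPM (next 1.51), Alox5 at 15.3 CPM (next 6.94), Ltc4s at 1.51 CPM (next 0.170) and Ptgir, the prostacyclin receptor, at 6.48 CPM (next 3.79). On the arginine-deficient diet, replicate 3 stood apart for 5 genes: Pla2g16 at 25.1 CPM (next 14.4), Acsl4 at 160.1 CPM (next 107), Hpgd at 4.002 CPM (next 1.37), Ptger4 at 26.7 CPM (next 16.2) and Cysltr1 at 33.4 CPM (next 12.1). The same library stood apart for the summed skeletal muscle markers, at 1747 CPM (next 440). Normal replicate 4 stood apart for the same muscle sum among normal tumours, at 152 CPM (next 20.3). Arginine-deficient replicate 1 stood apart for Mgst2, at 71.5 CPM (next 53.4). No cause was tested for any of these.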

How the results depend on the processing

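Of the 12929 genes, edgeR called 7. DESeq2 called 127, limma voom with sample weights 373, the fit without the 3 libraries richest in muscle 18, and fits without single libraries 0 to 16. Pathway genes called numbered 0 by edgeR, 1 by DESeq2 and 3 by limma voom with sample weights. Their median log2 fold change of 0.04 was -0.11 without the 3 muscle-rich libraries and -0.04 to 0.07 without single libraries. No alternative turned the sign of Pla2g2e or Ptgs2. Signs did turn for members near zero: leaving out single libraries gave -0.40 to 0.23 for Ptgds, -0.12 to 0.48 for Alox5 and -0.14 to 0.09 for Alox5ap, and limma voom with sample weights gave 0.10 for Ptgds and 0.08 for Alox5ap. The cause was not tested for any of these changes.

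Same-numbered tumours of the diets did not deviate together (r of 0.13, -0.35, -0.01, 0.13 and 0.18 for replicates 1 to 5), and only replicate 5 correlated best with its own number. With the replicate block edgeR called 1 gene, Pla2g2e had a log2 fold change of 2.20 and Ephx2 one of -0.091.

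Per kilobase of gene body instead of exon, Ptgs2 led the order and Pla2g2e passed Pla2g4a. Mean levels were 15.6 for Ptgs2, 5.50 for Ptges, 9.62 for Ptgs1, 4.05 for Lta4h, 1.05 for Alox5ap, 0.657 for Pla2g4a, 0.910 for Pla2g2e, 0.145 for Alox5, 0.651 for Ptgds and 0.126 for Ltc4s.

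Signs turned for these log2 fold changes of genes that edgeR did not call. Under limma voom with sample weights, values were 0.036 for Pla2g5, 0.049 for Pla2g6, 0.13 for Ptgir, 0.52 for Alox12, -0.23 for Cysltr1 and -0.38 for Ephx2. Without the 3 muscle-rich libraries, they were -0.23 for Pla2g16, -0.12 for Hpgd, -0.32 for Tbxa2r, -0.23 for Cysltr1 and -0.98 for Ephx2. Leaving out single libraries gave -0.034 to 0.39 for Pla2g16, -0.11 to 0.61 for Hpgd, -0.26 to 0.14 for Ptgir, -0.22 to 0.38 for Tbxa2r, -0.32 to 0.44 for Alox12, -0.33 to 0.43 for Cysltr1, -0.22 to 0.012 for Ephx1, -0.24 to 0.33 for Ephx2 and -0.066 to 0.16 for Cyp2j6.

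Counts of Ltc4s, Ptgds and most receptors were small, which limits the precision of their values.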
